A study of Rattus norvegicus with 17 samples.

Results

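Mucins, the mucus protein Fcgbp and genes of the goblet cell were followed through the meibomian gland (MG) transcriptome of 17 female rats. The set holds 9 genes, namely Fcgbp, Muc1, Muc4, Muc5ac, Muc16, Muc20, Agr2, Tff3 and Spdef, and was chosen by gene name after a fall of Fcgbp in UVB-exposed P1.hMR rats had been seen in these same values. Of the 9 genes, 7 were found among the 17251 genes listed, 6 under their own symbol and Muc5ac under its older clone name AABR07006032.1, which RefSeq gives as a synonym. The expression of Muc4 and Muc16 was not analysed here. Expression is given as TPM, the share of a gene's transcripts in the sample after division by transcript length, so that levels can be compared between genes.

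The rats fell into 4 groups of 10 to 12 weeks of age. Control WT (n = 4) and Control P1.hMR (n = 5) rats were not irradiated, while UVB WT (n = 3) and UVB P1.hMR (n = 5) rats received UVB light on the eyelids for 5 days before the MG was dissected. P1.hMR rats carry the human mineralocorticoid receptor (MR) gene NR3C2 under its own proximal P1 promoter, which is not specific to the MG and acts wherever the receptor is normally expressed. The transgene was listed at 0 in all WT rats, and each P1.hMR rat held 5.31 to 9.31 TPM of it. The MG is an oil gland of the eyelid whose ducts open at the lid margin beside the conjunctiva. Krt13 and Krt4, the keratin pair of non-cornified stratified epithelium such as conjunctiva, lay at 2999.41 to 5301.83 TPM and 941.59 to 1598.51 TPM, so RNA of such epithelium was in every sample. Of 10 lacrimal gland markers, 3 were listed, with a summed level of 0.34 to 4.53 TPM.

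Mucins are long proteins covered with O-linked sugars. Gel-forming mucins such as Muc5ac are secreted by goblet cells, which in the eyelid lie in the conjunctiva, whereas membrane mucins such as Muc1 and Muc20 stay anchored to the surface of epithelial cells and keep it wettable. Fcgbp is secreted with the mucins and takes part in the mucus gel. Agr2 is a protein disulfide isomerase needed for mucin folding, Tff3 a trefoil peptide released with mucins, and Spdef the Ets transcription factor that drives goblet cell maturation.

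The sequence upstream of the transcription start is shown for Fcgbp, the gene that led to this set, for Muc20, which fell after UVB in both genotypes, and for Agr2 and Spdef, which varied together between rats. Each line gives the 250 bases before the annotated start in RefSeq on GRCr8, 5′ to 3′ on the strand of the gene. Fcgbp lies at chr1:92502519-92502768 on the plus strand, Muc20 at chr11:81492641-81492890 on the plus strand, Agr2 at chr6:58435658-58435907 on the plus strand and Spdef at chr20:5787686-5787935 on the minus strand. Capitals mark matches to the motifs named in the next paragraph.
Fcgbp: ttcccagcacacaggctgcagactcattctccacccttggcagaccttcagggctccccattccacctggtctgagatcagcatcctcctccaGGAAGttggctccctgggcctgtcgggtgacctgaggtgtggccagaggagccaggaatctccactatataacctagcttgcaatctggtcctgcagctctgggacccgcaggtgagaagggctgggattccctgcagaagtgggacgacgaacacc
Muc20: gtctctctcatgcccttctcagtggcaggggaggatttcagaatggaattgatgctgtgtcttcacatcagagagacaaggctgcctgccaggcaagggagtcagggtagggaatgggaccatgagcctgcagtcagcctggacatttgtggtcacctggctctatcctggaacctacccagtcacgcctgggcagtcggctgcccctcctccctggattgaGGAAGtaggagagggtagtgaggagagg
Agr2: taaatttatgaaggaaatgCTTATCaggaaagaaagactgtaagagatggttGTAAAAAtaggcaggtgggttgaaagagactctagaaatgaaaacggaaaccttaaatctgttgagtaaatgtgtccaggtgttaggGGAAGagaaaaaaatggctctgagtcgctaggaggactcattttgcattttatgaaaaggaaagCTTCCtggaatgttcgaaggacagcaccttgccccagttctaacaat
Spdef: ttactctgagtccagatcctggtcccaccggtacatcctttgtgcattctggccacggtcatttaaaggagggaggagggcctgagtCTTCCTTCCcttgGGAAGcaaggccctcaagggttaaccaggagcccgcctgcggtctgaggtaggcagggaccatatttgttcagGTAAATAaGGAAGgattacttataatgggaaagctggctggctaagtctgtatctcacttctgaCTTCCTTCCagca

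The motifs were searched on both strands in the upstream windows of 7 of the 9 genes, all but Muc5ac and Muc16 and thus with Muc4, and their frequency was taken over all 33469 windows of that length. The steroid receptor hexamer TGTTCT, which MR and the glucocorticoid receptor can bind, was in 17.5% of all windows and in none of the 7, and the full palindrome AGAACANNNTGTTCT, which holds this hexamer on each strand, was in 0.012% and in none of the 7. The Ets core GGAAG was in 63.3% of all windows, and among the windows printed it was found 1 time each upstream of Fcgbp and Muc20, 2 times upstream of Agr2 and 6 times upstream of Spdef. The forkhead motif TNTTTAC, in 11.6% of all windows, was found upstream of Agr2 and Spdef, and GATAAG, in 6.18%, upstream of Agr2. TATAAA, in 12.9%, was found upstream of Muc1 and Tff3 and not in the windows printed, and the Ets motif CCGGAT (5.51%) and the AP-1 motif TGANTCA (6.34%) were in none of the 7 windows. These are matches of letters in a short window, and no binding was measured. The upstream sequence of Muc5ac is not shown.

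Fcgbp was the most abundant of the listed members in control rats. Its level was 17.91, 25.25, 29.38 and 50.81 TPM in Control WT rats, and the 5 Control P1.hMR rats had 35.5, 39.32, 23, 70.59 and 40.8 TPM. The UVB WT rats had 19.18, 13.31 and 5.63 TPM, and the UVB P1.hMR rats 7.74, 4.2, 3.8, 13.35 and 2.07 TPM. All 5 UVB P1.hMR rats lay below all 5 Control P1.hMR rats, whereas in WT rats the highest UVB rat lay just above the lowest control rat. Fcgbp averaged 6.23 ± 4.48 TPM (SD, n = 5) in UVB P1.hMR against 41.8 ± 17.5 TPM (SD, n = 5) in Control P1.hMR rats, a log2 fold change of -2.69 (SE 0.40) on log2(TPM + 1). This value is a description without a test, since the gene was chosen for it. Fcgbp averaged 12.7 ± 6.80 TPM (SD, n = 3) in UVB WT against 30.8 ± 14.1 TPM (SD, n = 4) in Control WT rats. This log2 fold change of -1.26 (SE 0.49, limma, Benjamini-Hochberg adjusted p = 0.0764) did not pass the threshold of 0.05. With each rat left out in turn, the value in WT rats ran from -1.61 (without UVB WT rat 1) to -0.81 (without UVB WT rat 3, adjusted p = 0.302 from limma). The adjusted p was under 0.05 in 1 of these fits, at 0.0485 without UVB P1.hMR rat 4. With the mean of 14 conjunctival epithelium markers as a covariate, it was 0.0159 at a log2 fold change of -1.31.

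Muc20, a membrane mucin, was lower after UVB in every irradiated rat. It measured 14.5, 19.63, 21.17 and 19.14 TPM in Control WT rats and 6.38, 7.82 and 5.14 TPM in UVB WT rats. In P1.hMR rats, it measured 22.16, 20.85, 16.79, 21.86 and 27.34 TPM without UVB and 6.49, 5.35, 4.7, 8.49 and 4.58 TPM with UVB. The highest of the 8 UVB rats, at 8.49 TPM, lay below the lowest of the 9 control rats, at 14.5 TPM. The share of all genes whose groups do not overlap was not computed, for Muc20 or any other member. The fall was -1.40 (SE 0.19, adjusted p = 0.000168 from limma) on the log2 scale in WT rats and -1.73 (SE 0.15, adjusted p = 1.26e-06) in P1.hMR rats. The difference between these responses, -0.33 (SE 0.24), did not pass the interaction test of limma (adjusted p = 0.831). Muc20 kept its call in both genotypes under every alternative tried and with each rat left out, with log2 fold changes from -1.64 to -1.27 for WT rats and from -1.88 to -1.59 for P1.hMR rats.

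**Figure D1:**
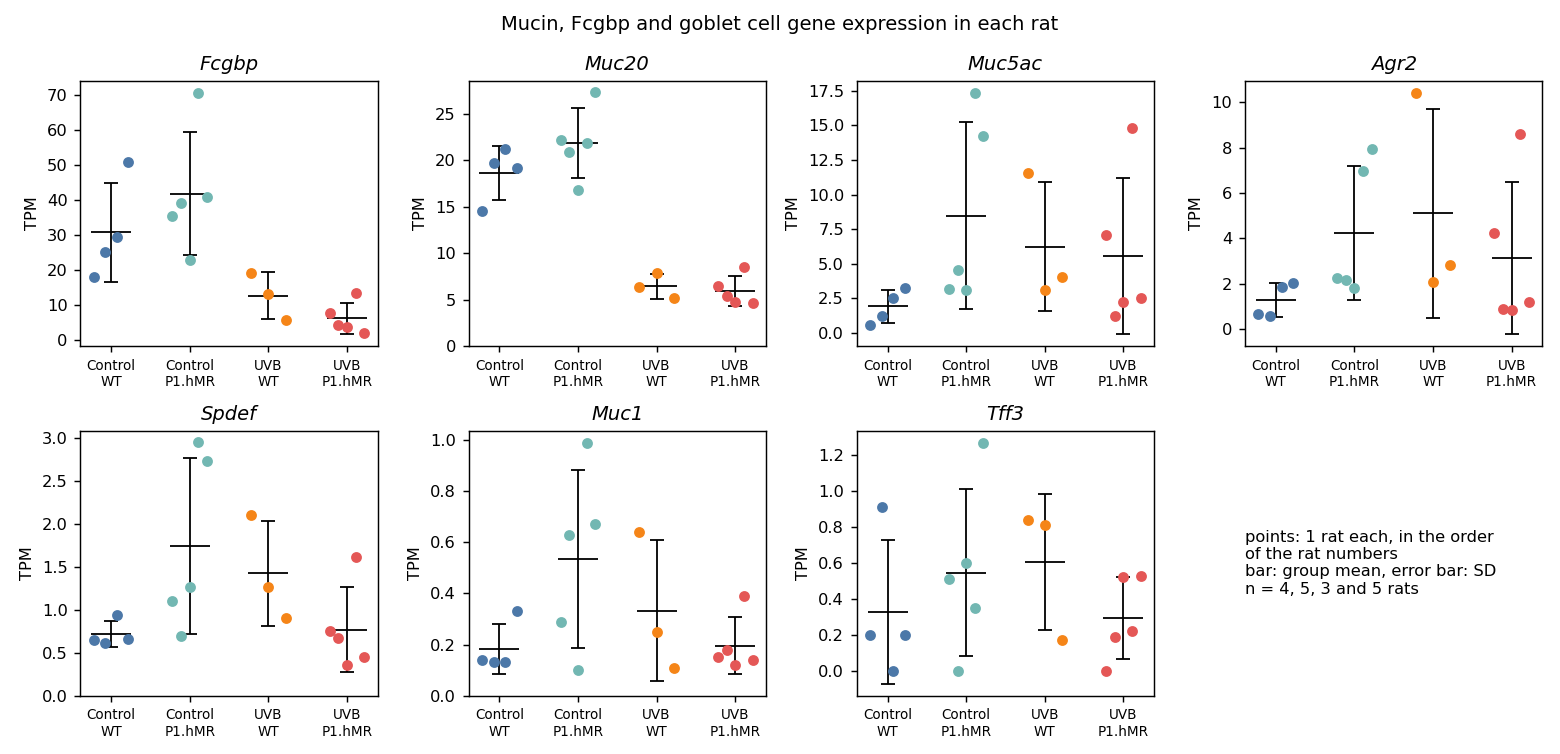
TPM (y axes, linear from 0) of the 7 listed members in each rat (points, in the order of the rat numbers) of the 4 groups (x axes), with the group mean and SD. Muc20 parts UVB from control rats without overlap, from 4.58 to 8.49 TPM against 14.5 to 27.34 TPM, whereas Muc5ac, Agr2 and Spdef spread widely inside each group.

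Muc5ac, the main gel-forming mucin of the conjunctiva, varied widely between rats of the same group. It measured 0.61, 1.25, 2.56 and 3.29 TPM among Control WT rats and 3.18, 4.59, 3.09, 17.32 and 14.19 TPM among Control P1.hMR rats. The UVB WT rats had 11.59, 3.08 and 4.04 TPM, and the UVB P1.hMR rats 7.07, 1.22, 2.23, 14.82 and 2.54 TPM. The highest rat stood 12.1-fold above the lowest among UVB P1.hMR rats and 5.61-fold among Control P1.hMR rats. The log2 fold change after UVB was 1.22 (SE 0.66, adjusted p = 0.202 from limma) in WT and -0.61 (SE 0.55, adjusted p = 0.404) for P1.hMR rats, and neither passed the threshold. Without UVB, Muc5ac had a log2 difference of 1.49 (SE 0.58) between P1.hMR and WT rats, with an unadjusted p of 0.0207 and an adjusted p of 0.998 over all genes.

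Agr2, which folds Muc5ac in the endoplasmic reticulum, showed the same picture. It lay at 0.67, 0.58, 1.84 and 2.03 TPM in Control WT rats and at 10.41, 2.05 and 2.82 TPM in UVB WT rats. These groups did not overlap, though the lowest UVB rat and the highest control rat were almost level, and the log2 fold change of 1.22 (SE 0.60) had an adjusted p of 0.155 from limma. Without UVB WT rat 1, the WT values dropped to 0.64 for Agr2, 0.73 for Muc5ac and 0.28 for Spdef. In P1.hMR rats, Agr2 lay at 2.26, 2.16, 1.82, 6.97 and 7.94 TPM without UVB and at 4.24, 0.87, 0.82, 8.59 and 1.17 TPM with UVB, a log2 fold change of -0.50 (SE 0.50, adjusted p = 0.454 from limma). With the conjunctival epithelium markers as a covariate, the values of Agr2 and Muc5ac in P1.hMR rats turned to 0.03 and 0.04.

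Spdef was low throughout, from 0.36 to 2.95 TPM, and 7 of 17 rats reached 1 TPM. It measured 1.1, 0.69, 1.26, 2.95 and 2.73 TPM in Control P1.hMR rats and 0.75, 0.67, 0.36, 1.61 and 0.45 TPM in UVB P1.hMR rats. These groups overlapped, and the fall of -0.59 (SE 0.23, adjusted p = 0.0491 from limma) only just passed the threshold. The call was lost with 12 of the 17 rats left out in turn, the adjusted p then reaching 0.134, and remained without Control P1.hMR rat 1 or 2, UVB WT rat 1 or 3, or UVB P1.hMR rat 4. In WT rats, Spdef measured 0.65, 0.61, 0.94 and 0.66 TPM without and 2.1, 1.27 and 0.9 TPM with UVB, a log2 fold change of 0.47 (SE 0.28, adjusted p = 0.237 from limma). The difference between the responses of the genotypes was -1.07 (SE 0.36), with an unadjusted p of 0.00872 and an adjusted p of 0.704.

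Muc1 and Tff3 were listed and fell below the expression filter, so they were not tested. Muc1, a membrane mucin of the ocular surface, lay between 0.1 and 0.99 TPM, with 0.14, 0.13, 0.13 and 0.33 TPM among Control WT rats and 0.29, 0.63, 0.1, 0.99 and 0.67 TPM among Control P1.hMR rats. UVB WT rats had 0.64, 0.25 and 0.11 TPM and UVB P1.hMR rats 0.15, 0.18, 0.12, 0.39 and 0.14 TPM. No comparison of 2 groups was without overlap for Muc1. Tff3 was listed at 0 in 3 rats and reached 1 TPM in 1 rat, Control P1.hMR rat 5 at 1.27 TPM.

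Of the 4 tested members other than Fcgbp, 1 was called after UVB in WT rats, Muc20, where 7.91% of all 13105 genes tested were called. In P1.hMR rats, 2 of the 4 were called, Muc20 and Spdef, both lower, where 10.8% of all genes were called in either direction. Between P1.hMR and WT rats, limma called 0 of the 4 with UVB and 0 without UVB, against 0.0229% and 0.00763% of all genes. The interaction of genotype and UVB called 0 of the 4 and 0% of all genes. At an unadjusted p under 0.05, 35.3% of all genes passed after UVB in WT and 47.6% in P1.hMR rats, 10.3% for genotype with UVB, 4.03% without UVB and 6.92% for the interaction. Each UVB comparison shares a group with each genotype comparison, so these values are not independent of each other. With rats as the only replicates, p-values set each difference against the spread between these rats within groups.

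**Figure D2:**
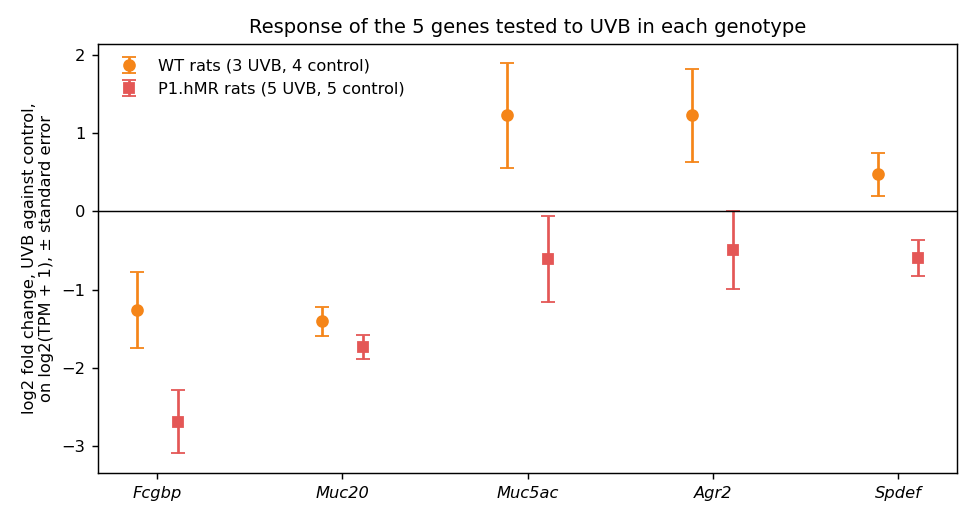
Log2 fold change of UVB against control rats (y axis, on log2(TPM + 1), error bars standard errors) for the 5 members that passed the expression filter (x axis), in WT and in P1.hMR rats. Muc20 lies at -1.40 and -1.73, whereas Muc5ac and Agr2 lie at 1.22 in WT and at -0.61 and -0.50 in P1.hMR rats with wide errors, and the Fcgbp value in P1.hMR rats is a description because it chose the gene.

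Within groups, Muc5ac, Agr2 and Spdef moved from rat to rat together. After the mean of each group was taken off, Muc5ac and Agr2 had a Pearson r of 0.967 and a Spearman rho of 0.870 over the 17 rats, and Agr2 and Spdef an r of 0.843. Muc20 followed Muc5ac less closely, with an r of 0.656, and Fcgbp stood between them at 0.798 with Muc5ac and 0.758 with Muc20. These are descriptions, as all genes of a rat come from the same piece of tissue. The rats highest for Muc5ac, Agr2 and Spdef were Control P1.hMR rats 4 and 5, UVB WT rat 1 and UVB P1.hMR rat 4, and the last was also the highest of its group for Fcgbp and Muc20. In Control WT rats, rats 3 and 4 led for all 3 genes.

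Among all genes tested, the genes most like each member over the 17 rats were then taken. These r are the highest picked from 13105 genes and have no test. Next to Agr2, Muc5ac was most like Gp2, a membrane glycoprotein of secretory and antigen-sampling epithelia (r = 0.962), and Krt18, a keratin of simple epithelium (r = 0.937), and the same genes followed Agr2 at 0.938 and 0.931. Gp2 ranged widely, with 2.12, 8.12, 14.94 and 24.85 TPM among Control WT rats and 22.93, 32.72, 21.64, 123.92 and 104.17 TPM among Control P1.hMR rats. The UVB WT rats had 53.21, 9.44 and 10.39 TPM of it and the UVB P1.hMR rats 27.45, 3.74, 4.72, 40.13 and 3.85 TPM, so the rats high for Muc5ac were again the high rats.
Fcgbp was most like Ero1b, an oxidase of disulfide bond formation (r = 0.885), Tlr2, a receptor for bacterial lipoproteins (0.874), and Pllp, a membrane protein of myelin and epithelia (0.872). Muc20 was most like Apobec1, Aste1 and Capn13 (r = 0.898, 0.862 and 0.837), and Spdef most like Dact3, Mmp15 and Gkn3 (0.893, 0.893 and 0.877). For Spdef, Spearman's rho was 0.681 with Dact3, 0.819 with Mmp15 and 0.885 with Gkn3. Gkn3, a gastrokine, ranged from 0.19 to 6.85 TPM, while Ero1b stayed between 1.46 and 2.61 TPM.

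**Figure D3:**
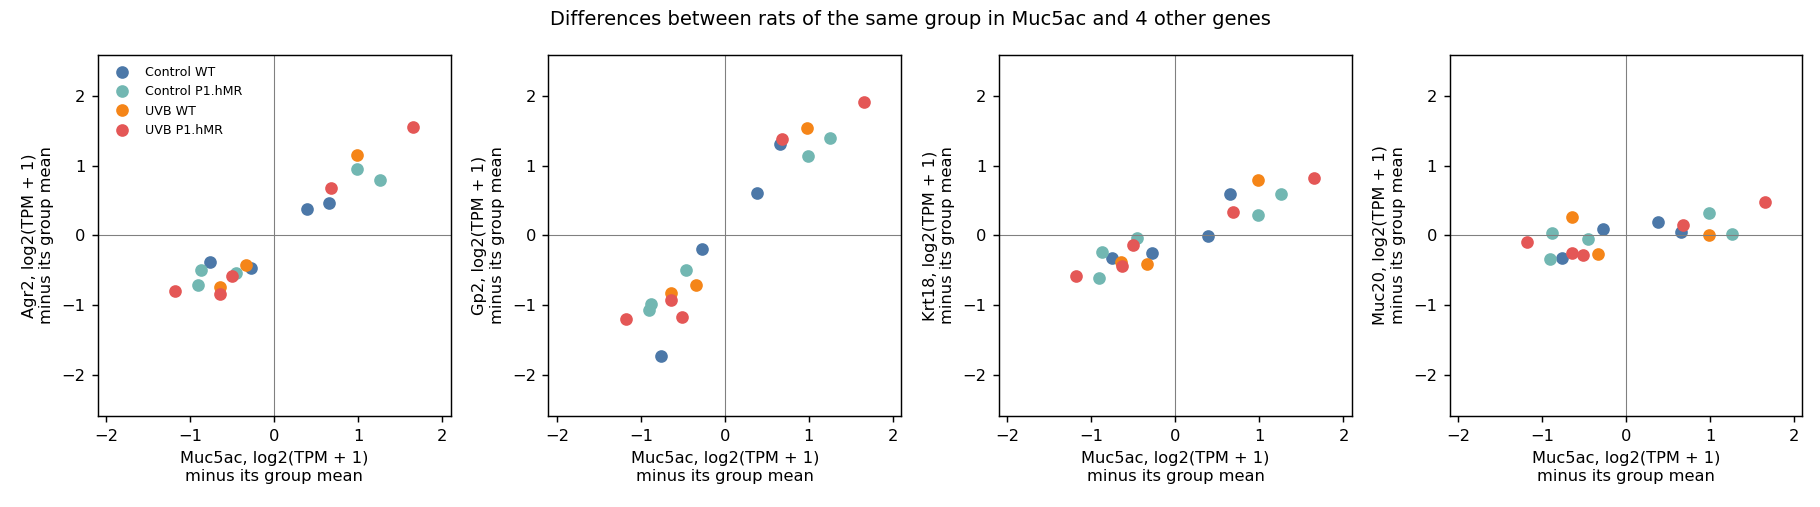
Deviation of each rat (points, coloured by group) from its group mean on log2(TPM + 1), for Muc5ac (x axes) against Agr2, Gp2, Krt18 and Muc20 (y axes). Agr2, Gp2 and Krt18 follow Muc5ac (r = 0.967, 0.962 and 0.937 over the 17 rats), while Muc20 stays within a narrow band (r = 0.656).

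The level of a member relative to Muc5ac in the same rat was next set side by side between groups, as a description. The ratio of Fcgbp to Muc5ac ranged from 11.5 to 29.4 in Control WT and from 2.88 to 11.2 in Control P1.hMR rats. It ranged from 1.39 to 4.32 in UVB WT and from 0.815 to 3.44 in UVB P1.hMR rats. The WT groups did not overlap, while UVB P1.hMR rats overlapped Control P1.hMR rats. The level of Fcgbp itself did overlap between the WT groups. The ratio also depends on Muc5ac, which was low in Control WT rats (0.61 to 3.29 TPM) and lay at 3.08 to 11.59 TPM in UVB WT rats. For Agr2 and Muc5ac, by contrast, the ratio stayed between 0.368 and 1.10 in all 17 rats, with group medians of 0.668, 0.560, 0.698 and 0.580. Muc20 relative to Muc5ac had medians of 12.0 (WT) and 4.54 (P1.hMR) without UVB and of 1.27 (WT) and 1.80 (P1.hMR) with UVB. The mean of Muc5ac, Agr2 and Spdef was also used as a covariate, chosen after the values were seen. The log2 fold change of Fcgbp in WT rats was then -2.02 (SE 0.34), given as a description. These covariate genes themselves had WT log2 fold changes of 1.22, 1.22 and 0.47 after UVB. The fit also held the P1.hMR rats that chose Fcgbp. In a bulk sample, fewer goblet or conjunctival cells and less RNA per cell cannot be told apart.

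**Figure D4:**
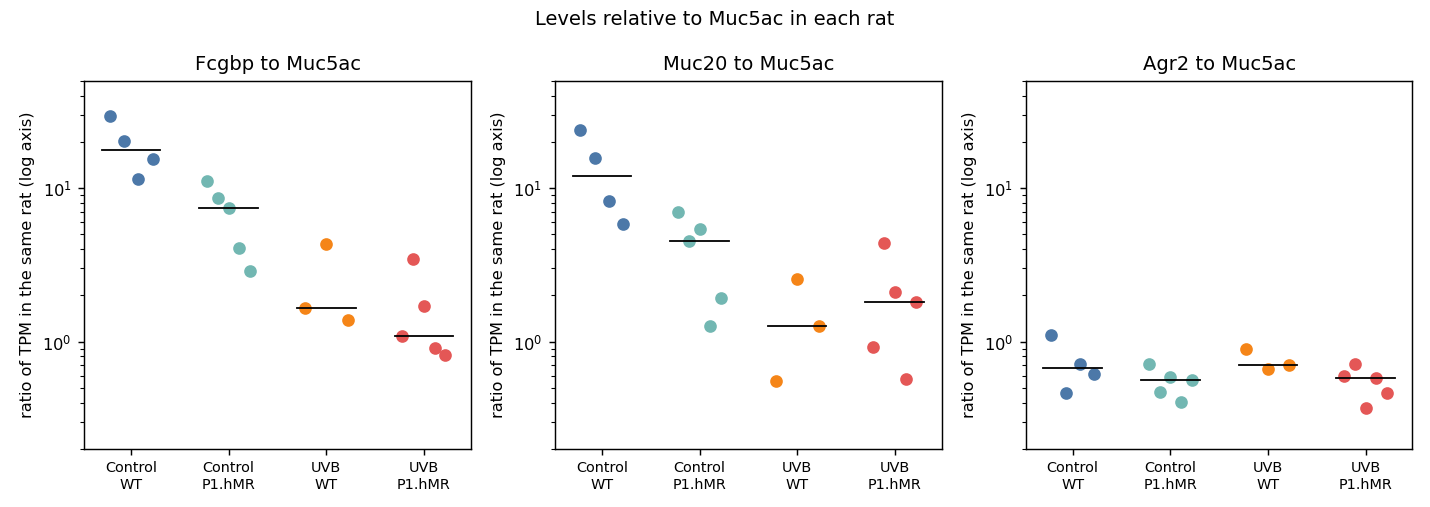
Ratio of TPM in the same rat (y axes, log scale) for Fcgbp, Muc20 and Agr2 to Muc5ac in the 4 groups (x axes), with 1 point per rat and the group median as a line. The medians of Fcgbp to Muc5ac are 17.8 and 7.44 without UVB in WT and P1.hMR rats, and 1.65 and 1.09 with UVB, whereas those of Agr2 to Muc5ac stay between 0.560 and 0.698. Muc5ac, the divisor, lies at 0.61 to 3.29 TPM in Control WT rats.

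The conjunctival epithelium was followed through 14 listed markers of 15. Their summed level, carried mostly by Krt13 and Krt4, ran from 4116 to 5609 TPM without UVB and from 5139 to 6613 TPM with UVB in WT rats. In P1.hMR rats, it ran from 4656 to 5462 TPM and from 5328 to 7226 TPM, and no marker was at 0 in all rats. Krt4 had log2 fold changes after UVB of 0.13 (WT) and 0.15 (P1.hMR), and Krt13 of 0.22 and 0.29, none of them called. Of the 13 markers tested, 1 was called higher and 2 lower in WT rats and 1 higher and 3 lower in P1.hMR rats. Over all genes tested, 7.91% and 10.8% were called in these genotypes. Ly6d, a surface protein of squamous epithelium, rose on the log2 scale (0.69 for WT, 1.15 for P1.hMR), while Krt7, a keratin of glandular epithelium, had changes of -0.57 and -0.65 and Gabrp, a GABA receptor subunit of secretory epithelia, of -0.70 and -1.10. Krt18 fell in P1.hMR rats by -1.29 (SE 0.30, adjusted p = 0.00343 from limma).

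Markers of the other tissues in the eyelid were counted in the same way. The 8 listed hair follicle genes summed to 816.5 to 1163 TPM in Control WT and 741.5 to 1336 TPM in Control P1.hMR rats, and after UVB to 321.8 to 880.4 TPM (WT) and 444.6 to 740.3 TPM (P1.hMR). Of these, 8 of 8 were called lower after UVB in WT and 7 of 8 in P1.hMR rats, along with Muc20. The 13 MG and sebaceous gland genes summed to 47490 to 58780 TPM without and 43580 to 52980 TPM with UVB, with 3 called higher and 2 lower in WT and 2 higher and 3 lower in P1.hMR rats. Of 8 epidermis genes, 1 was called lower for WT and 2 for P1.hMR rats, and of 7 skeletal muscle genes 0 and 1. Beside these counts, 7.91% of all genes were called in WT and 10.8% in P1.hMR rats, in either direction. The part of these tissues in the values of Muc20 and Fcgbp was not tested.

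Member levels were set against the mean conjunctival marker level, within the 9 control rats and within the 8 UVB rats apart, in 10 relations. In control rats, Pearson's r was 0.811 for Muc5ac, 0.785 for Fcgbp, 0.752 for Agr2, 0.705 for Spdef and 0.701 for Muc20. The two-sided exact permutation test gave p = 0.00511 for Muc5ac, 0.0162 for Agr2, 0.024 for Spdef and 0.0421 for Muc20 (Benjamini-Hochberg adjusted over the 10 relations, p = 0.0405, 0.0405, 0.0479 and 0.0602). The r of Fcgbp is a description, since P1.hMR rats that chose the gene are among these rats. Its relations are still among the 10 over which p was adjusted. Spearman's rho was 0.667 for Fcgbp, and 0.633 for Muc5ac, 0.617 for Agr2, 0.750 for Spdef and 0.583 for Muc20 (exact permutation p = 0.076, 0.0857, 0.0255 and 0.108, adjusted p = 0.171, 0.171, 0.171 and 0.180).
In UVB rats, r was 0.844 for Muc5ac and 0.769 for Agr2 (exact permutation p = 0.00972 and 0.0292, adjusted p = 0.0405 and 0.0486), and 0.575 for Spdef and 0.422 for Muc20 (exact permutation p = 0.137 and 0.294, adjusted p = 0.157 and 0.294), with 0.572 for Fcgbp. Spearman's rank correlation in UVB rats was 0.667 for Muc5ac, 0.524 for Agr2, 0.357 for Spdef and 0.333 for Muc20 (exact permutation p = 0.0831, 0.197, 0.389 and 0.428, adjusted p = 0.171, 0.281, 0.428 and 0.428), with 0.476 for Fcgbp. Both sets of rats mix WT and P1.hMR rats, and the permutation did not keep the genotypes apart. Muc5ac lay at 0.61 to 3.29 TPM in Control WT and at 3.09 to 17.32 TPM in Control P1.hMR rats. The marker Krt18 averaged 1.47 and 3.84 TPM in these groups. The p-values can thus hold a difference between genotypes as well as a relation between rats.
Without the 2 rats farthest from the median marker level, r was 0.564 for Muc5ac, 0.179 for Fcgbp, 0.693 for Agr2, 0.761 for Spdef and 0.473 for Muc20 in control rats. In UVB rats it became 0.448 for Muc5ac, 0.125 for Agr2, -0.0895 for Fcgbp, -0.449 for Spdef and -0.150 for Muc20. The relations of Fcgbp in control rats and of Agr2 in UVB rats thus rest on the rats left out. Those of Muc5ac were also weaker without them, down from 0.811 in control and 0.844 in UVB rats. The simple keratins Krt7, Krt8 and Krt18 are in the marker list, and without them 0 of the 10 relations had an adjusted p under 0.05, with r between 0.121 and 0.718.

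The other genes of mucus assembly were taken from lists written by function. Of 29 enzymes of mucin-type O-glycosylation, 22 were tested, with a median log2 fold change after UVB of 0.01 (WT) and -0.05 (P1.hMR), against 0.01 and -0.02 over all genes. Limma called 2 higher and 1 lower in WT and 2 higher and 4 lower in P1.hMR rats. Of all genes tested, 7.91% (WT) and 10.8% (P1.hMR) were called in either direction. Galnt6, which adds the first sugar of the chain, rose in both genotypes. It averaged 6.65 ± 0.837 TPM (SD, n = 3) with UVB against 1.86 ± 0.295 TPM (SD, n = 4) without in WT rats. The P1.hMR rats had 6.60 ± 1.58 TPM (SD, n = 5) against 1.98 ± 0.276 TPM (SD, n = 5). Fut2, the fucosyltransferase of secretor antigens, rose too, with log2 fold changes of 0.90 for WT and 1.20 for P1.hMR rats. Gcnt2, which branches sugar chains, had changes of -0.57 and -0.60, both called. In P1.hMR rats, Galnt12 (-0.54), the core 3 synthase B3gnt6 (-0.83) and the sialyltransferase St6galnac1 (-0.77) were also called lower, and for none of them was the difference between the genotypes called.

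Of 28 goblet cell regulators and secretory genes, 24 were listed and 15 tested. Limma called 4 lower in WT, 5 lower in P1.hMR and 0 higher in either. Over all 13105 genes tested, 522 were called lower in WT and 748 in P1.hMR rats. Elf3, an Ets factor of epithelial differentiation, had log2 fold changes of -0.51 and -0.52 in WT and P1.hMR rats. Scin, an actin-severing protein of secretory cells, had changes of -0.83 and -1.02, Rab27a, a GTPase of granule docking, of -0.74 and -0.84, and Best2, an anion channel of goblet cells in the colon, of -0.87 and -0.81. Pigr, the receptor that carries IgA across epithelium, was called in P1.hMR rats, with 1.53 ± 1.00 TPM (SD, n = 5) after UVB against 6.24 ± 2.96 TPM (SD, n = 5). Its WT values were 1.73 ± 0.990 TPM (SD, n = 3) after UVB against 3.30 ± 0.549 TPM (SD, n = 4). The median log2 fold change over the list was -0.15 (WT) and -0.20 (P1.hMR), against 0.01 and -0.02 over all genes. Elf3, Rab27a and Scin averaged 106, 54.1 and 27.7 TPM in Control WT rats, where Muc5ac averaged 1.93 TPM. Below the filter and not tested, Tff1 averaged 0.113 TPM in Control WT (0 to 0.26 TPM) and 0.613 TPM in UVB WT rats (0.2 to 0.85 TPM). Clca1 averaged 0.143 (0 to 0.28) and 0.36 TPM (0.1 to 0.77) there, so both genes overlapped between the groups. Clca4 went the other way (0.225 and 0.133 TPM). In P1.hMR rats the means of these genes were lower with UVB (Tff1 0.794 and 0.378 TPM, Clca1 0.766 and 0.234 TPM), again with overlap. Tff1, Clca1 and Clca4 were picked from the untested genes of the list, and the others are not shown.

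Of 10 membrane mucin partners, all tested, 0 were called in WT rats, where 7.91% of all genes were called. In P1.hMR rats, at 10.8% of all genes, 1 was called higher, the actin linker Msn (0.53), and 1 lower, Msln (-0.86), a surface protein that binds Muc16. The WT values were 0.47 for Msn (adjusted p = 0.0192 from limma), short of the 0.5 threshold, and -0.74 for Msln (adjusted p = 0.0765). Neither passed the interaction test of limma (0.07 and -0.13, adjusted p = 0.956 and 0.965). Of 10 other membrane mucins and sialomucins, 5 were listed, 4 were tested and 0 were called in any comparison by limma. Muc15, a membrane mucin of glandular epithelia, averaged 63.3 ± 2.97 TPM (SD, n = 3) with UVB against 60.3 ± 5.83 TPM (SD, n = 4) without in WT rats. Its P1.hMR means were 66.3 ± 5.40 TPM (SD, n = 5) against 65.4 ± 5.43 TPM (SD, n = 5). This is a log2 fold change of 0.07 (SE 0.08) for WT and 0.02 (SE 0.07) for P1.hMR rats, not called in either. Of 9 other secreted mucins, Muc5b at 0.05 to 0.63 TPM and Muc2 at 0 to 0.04 TPM were listed and neither reached the filter. Muc5b lay higher in the 8 UVB rats (0.14 to 0.63 TPM) than in 8 of the 9 control rats (0.05 to 0.12 TPM), with Control P1.hMR rat 5 at 0.29 TPM.

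**Figure D5:**
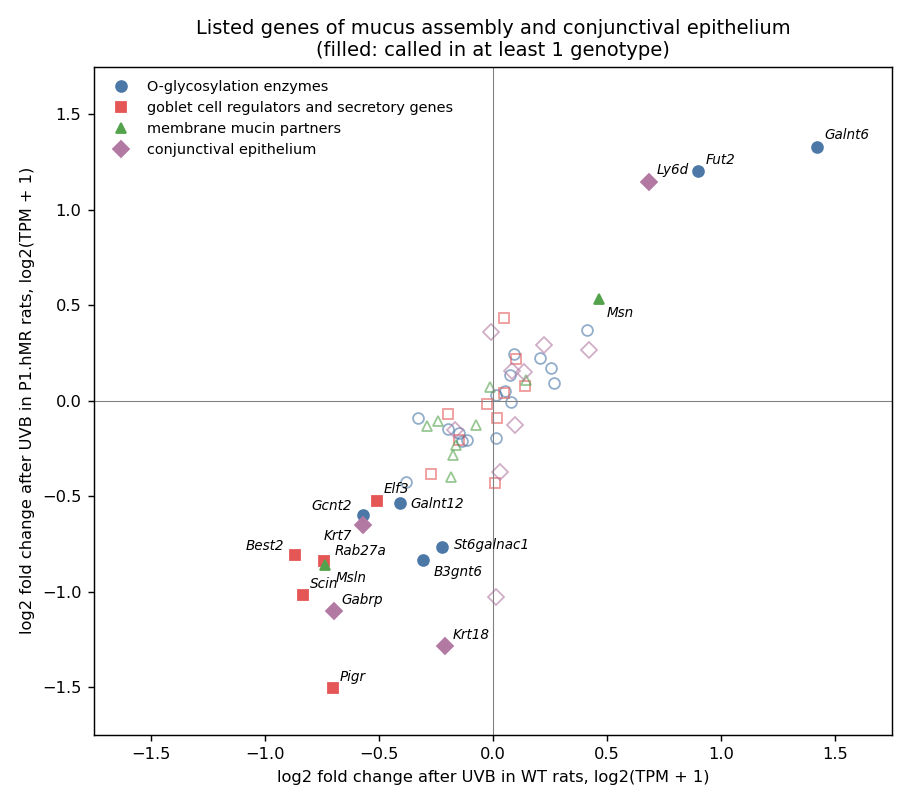
Log2 fold change after UVB on log2(TPM + 1) in WT rats (x axis) against P1.hMR rats (y axis) for the tested genes of 4 lists, with filled symbols and names for genes called in at least 1 genotype. Galnt6 (1.42 and 1.33) and Fut2 (0.90 and 1.20) lie at the upper right, and Pigr (-0.70 and -1.50), Scin (-0.83 and -1.02) and Rab27a (-0.74 and -0.84) at the lower left.

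The control rats of each genotype serve in its UVB comparison and in the genotype comparison without UVB. The low Control WT rats for Muc5ac, Agr2 and Spdef thus enter both the WT response and the genotype difference. Control P1.hMR rats 4 and 5, the highest of their group for these genes, likewise enter the P1.hMR response and the genotype difference. Without UVB, Agr2 and Spdef had log2 differences of 1.08 (SE 0.53) and 0.60 (SE 0.24) between P1.hMR and WT rats, and Muc20 of 0.21 (SE 0.16), each with an adjusted p of 0.998 from limma. With UVB, the differences were -0.64 for Agr2, -0.46 for Spdef, -0.34 for Muc5ac and -0.12 for Muc20 (adjusted p from limma between 0.572 and 0.889). Fcgbp had differences of 0.44 (SE 0.43) without and -0.99 (SE 0.47) with UVB, given as a description.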

How the data were processed

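RNA from the dissected MG of each rat was sequenced, and the authors deposited TPM for 17251 genes, written with decimal commas and 2 decimals. By the paper's methods, reads were checked with FastQC, aligned to rn7 with STAR and quantified with RSEM, whereas the submitters' processing notes list FastQC, Trimmomatic, DRAGEN and Picard, and which of these gave the deposited TPM is not given in the sources used here. The listed genes held 80.4% to 84.1% of each sample's TPM total, and 12372 to 12737 genes reached 1 TPM. TPM keeps no depth, so no counting error was computed, and precision comes from the spread between rats.

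Samples were grouped by their deposited titles. Values were analysed as log2(TPM + 1), which understates the change of low genes, and 13105 genes that reached 1 TPM in 3 or more rats were fitted in 1 limma model (limma 3.58.1, R 4.3.3), with 4 group means and a variance trend. DESeq2 of the paper's methods needs counts and was not run. A gene was called where its two-sided p, adjusted by Benjamini-Hochberg, was below 0.05 and its log2 fold change was 0.5 or more in size. The model was tested on simulated data. Correlations, figures and motif counts used scipy 1.17.1, pandas 2.3.3, numpy 2.4.6 and matplotlib 3.10.9 under Python 3.11.15.

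The members and gene lists were chosen with earlier results of these data known. Fcgbp was chosen by its fall after UVB in P1.hMR rats and has a test only for UVB in WT rats. Genes named are all listed members, the list genes called in a group comparison, and the 3 genes most like each member with a mean of at least 1 TPM. Gp2 levels, Krt4, Krt13, Muc15, Muc5b, Muc2, Tff1, Clca1 and Clca4 were named after their values were seen. Alternatives were a pseudocount of 0.1, no expression filter, a minimum mean of 5 TPM, quantile and median-of-ratios scaling, fits of 2 groups alone, a replicate block, conjunctival and goblet cell gene covariates, no fold change threshold, and each rat left out. Upstream sequences are from RefSeq on GRCr8, whereas the files use rn7.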

Additional observations from a re-analysis of the deposited data

Results flagged for a closer look

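In 21 groups of 4 or 5 rats, 3 held a rat far from the others of its group for a listed member, where chance gives about 1 in 20. Muc1 was 0.33 TPM in Control WT rat 4, against 0.13 to 0.14 TPM in the other rats of the group, and 0.39 TPM in UVB P1.hMR rat 4, against 0.12 to 0.18 TPM. Both rats were also the highest of their group for Fcgbp and Muc5ac. Spdef was 0.94 TPM in Control WT rat 3, against 0.61 to 0.66 TPM in the other rats. These levels lie below 1 TPM, and Muc1 was not tested in any comparison.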

How the results depend on the processing

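After UVB in P1.hMR rats, 2 of the 4 members tested were called, and this became 1 (Muc20 alone) with no expression filter, quantile normalization, a minimum mean of 5 TPM, only the 2 groups compared or the conjunctival covariate. It lay between 1 and 2 with each rat left out, the call lost being that of Spdef. With that minimum, Agr2 and Spdef were not fitted. With the conjunctival covariate, the signs of Agr2 (0.0315) and Muc5ac (0.0363) after UVB in P1.hMR rats and of Fcgbp between genotypes without UVB (-0.0193) turned. With the goblet cell gene covariate, chosen after the data were seen, so did Fcgbp (-0.39) and Muc20 (-0.0459) between genotypes without UVB and the interaction of Muc20 (0.0458), and the interaction of Fcgbp went from -1.42 to -0.22. Between genotypes with UVB, leaving out a rat gave -0.25 to 0.0109 for Muc20 and -0.75 to 0.15 for Muc5ac, turning without UVB WT rat 2 and rat 1. None of these values was called, and the cause was not tested. Relations with conjunctival markers under an adjusted p of 0.05 (permutation test) fell from 6 to 0 without Krt7, Krt8 and Krt18 in the score. The 6 include that of Fcgbp in control rats, which is a description and not a test. With a pseudocount of 0.1 they stayed at 6, but Agr2 in UVB rats left (exact permutation, adjusted p = 0.0509) and Muc20 in control rats joined (0.0474). With a replicate block, 3 members were called in WT rats, Muc20, Agr2 (1.55, adjusted p = 0.0383 from limma) and Muc5ac (1.63, adjusted p = 0.0431), in place of 1, and Fcgbp was -0.97 there (adjusted p = 0.0651 from limma). Rats that share a number had a median correlation of -0.0051 over 22 pairs, from -0.187 to 0.235. Rats of different groups with different numbers had a median of 0.00802 over 85 pairs, from -0.264 to 0.181. These sets of pairs were set side by side without a test. Whether rats of the same number share anything beyond it was thus not tested. No depth can be given for TPM, and levels under 1 TPM (Muc1, Tff3, most Spdef values) limit what can be said of these genes.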
